A study of Mus musculus with 8 samples.

Results

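The genes described here belong to the pericentral zone of the liver lobule and to the Wnt pathway, and 10 of them were followed across 4 diet groups: Wif1, Lgr5, Axin2, Tbx3, Glul, Oat, Rhbg, Slc1a2, Cyp2e1 and Cyp1a2. They were taken as every non-control probe whose gene name on the array was one of these 10 symbols, which gave 18 of 41174 gene probes. Of the 10 genes, 9 passed the filter on dim probes and were among 17354 genes tested, and Axin2 did not. Of the 9, 8 were well above background on all arrays, and Wif1 passed through the high fat groups alone, so that it had to differ between the groups and is left out of the counts and medians of members below. Total RNA came from livers of wild-type male mice of strain C57Bl/6J, aged 14 weeks and fasted for 4 h, hybridised to one-colour Agilent arrays, with 2 arrays per group and 8 in all. In BD_HF the dams ate a standard breeder chow and the offspring were weaned onto a diet with 60% of its energy as fat. In LF_HF the pregnant dams changed from breeder chow on embryonic day 10.5 to a low fat diet of defined composition with sufficient vitamin A, and the offspring were weaned onto the same high fat diet. All dams began on the breeder chow, and the labels state the day of the change for LF_HF only. In VAD_VAD dams and weaned offspring ate a defined low fat diet without enough vitamin A, with 12% of its energy as fat. In LF_LF dams and weaned offspring ate the defined low fat, vitamin A sufficient diet, also with 12% of its energy as fat. Whether the 2 samples of a group came from different animals is not stated in the labels, so the p-values reflect sample-to-sample spread, which may be technical.

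Hepatocytes differ along the path of blood from the portal to the central vein. Endothelial cells of the central vein secrete Wnt ligands and R-spondin, which keep beta-catenin active in the neighbouring hepatocytes and hold glutamine synthesis and much of drug metabolism there. Cells at the portal end instead carry out urea synthesis and gluconeogenesis. Whole liver was measured, so fewer pericentral cells and less RNA of a gene in each such cell cannot be told apart in any value below.

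Levels are the log2 of the processed intensity minus that array's 75th percentile, so 0 is the brightness of a probe at the 75th percentile, and levels of different probes are not compared. The LF_HF replicate 1 array stood apart: its 75th percentile was 496 intensity units against 195 to 296 on the other 7 arrays, 82.2% of its probes were well above background against 56.5% to 64.2%, and its extraction quality result was out of range. The 2 LF_HF arrays differed over genes with an SD of 1.47, against 0.408 to 0.711 in the other groups. All 15 hepatocyte marker genes listed were tested and 0 passed in any comparison with limma, with at most 1 in a comparison at an unadjusted p under 0.05. Their median difference from LF_LF was 0.45 in BD_HF, 0.13 in LF_HF and 0.71 in VAD_VAD. In that order, 9, 2 and 13 of the 15 had both arrays above both LF_LF arrays, against 34.2%, 20.9% and 32.4% of all genes. The 12 of them with a value on all arrays were well above background on all 8, with a log2 mean level of 7.63 to 8.83. Stellate, macrophage and cholangiocyte markers were highest in LF_LF, while endothelial markers and neutrophil and lymphocyte markers were not. Levels of lists are the log2 of the mean linear level, which the brightest genes dominate. The 13 stellate and fibroblast markers gave 2.98 and 3.35 in BD_HF livers, 2.46 and 2.53 in LF_HF, 3.61 and 3.15 in VAD_VAD, and 4.41 and 4.13 in LF_LF. The 14 macrophage markers gave 2.91 and 3.13 in BD_HF livers, 2.57 and 2.42 in LF_HF, 2.82 and 3.39 in VAD_VAD, and 3.92 and 3.81 in LF_LF. The 6 cholangiocyte markers with a value on all arrays gave 0.98 and 0.92 in BD_HF livers, 0.45 and 0.32 in LF_HF, 0.29 and 0.12 in VAD_VAD, and 1.64 and 2.19 in LF_LF. Of these, 11 of the 13, 14 of the 14 and 5 of the 6 were well above background on all arrays. Of the stellate list 5 of 14 tested genes fell and 0 rose against LF_LF in each of the other groups, Col1a1 by 4.01 in BD_HF, 4.67 in LF_HF and 3.81 in VAD_VAD. Of 14 macrophage markers 2 rose and 1 fell in BD_HF, 1 rose and 3 fell in LF_HF, and 1 rose and 1 fell in VAD_VAD, and of 8 cholangiocyte markers 0, 2 and 1 fell in that order. Of all genes, 0.455%, 0.617% and 0.0922% were called as higher in that order, and 1.05%, 1.87% and 0.478% as lower. The part of these cells in the differences from LF_LF below was not tested.

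The promoters of 7 of the 10 genes were in the RefSeq table (GRCm38.p6), and the 250 bases before the start were searched on both strands for CTTTGA (or TCAAAG), the core letters bound by TCF and LEF factors, the DNA-binding partners of beta-catenin. It was found before 3 of the 7 genes, Slc1a2, Cyp2e1 and Cyp1a2, and before 13.8% of 32851 promoters in the table. These 3 are printed because they hold the match and were all lowest in LF_LF, and Wif1 because it was well above background on the high fat arrays alone. Matches are in capitals. They begin 206 and 77 bases before the start of Slc1a2 (chr2:102706188-102706437, plus strand), 135 bases before that of Cyp2e1 (chr7:140763569-140763818, plus strand) and 243 bases before that of Cyp1a2 (chr9:57683656-57683905, minus strand), and there is none before Wif1 (chr10:121033754-121034003, plus strand).
Slc1a2: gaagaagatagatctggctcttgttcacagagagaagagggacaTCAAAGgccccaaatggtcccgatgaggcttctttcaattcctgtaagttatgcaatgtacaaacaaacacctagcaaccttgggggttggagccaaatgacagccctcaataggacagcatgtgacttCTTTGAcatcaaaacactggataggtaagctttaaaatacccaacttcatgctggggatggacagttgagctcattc
Cyp2e1: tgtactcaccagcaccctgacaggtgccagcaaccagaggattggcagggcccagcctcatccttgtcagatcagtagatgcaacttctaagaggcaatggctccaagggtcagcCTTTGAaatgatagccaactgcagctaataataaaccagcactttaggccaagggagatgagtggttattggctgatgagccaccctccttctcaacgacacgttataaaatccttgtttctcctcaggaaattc
Cyp1a2: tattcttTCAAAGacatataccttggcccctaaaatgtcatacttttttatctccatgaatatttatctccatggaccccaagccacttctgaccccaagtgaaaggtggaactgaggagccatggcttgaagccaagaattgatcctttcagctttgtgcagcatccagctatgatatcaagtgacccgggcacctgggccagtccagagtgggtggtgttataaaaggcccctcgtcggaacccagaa
Wif1: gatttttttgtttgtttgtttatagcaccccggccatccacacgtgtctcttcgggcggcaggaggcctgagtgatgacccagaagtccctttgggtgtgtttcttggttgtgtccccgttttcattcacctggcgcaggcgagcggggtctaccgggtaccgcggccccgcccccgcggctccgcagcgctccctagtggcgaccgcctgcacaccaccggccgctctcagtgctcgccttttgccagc
The nuclear receptor half-site AGGTCA was found before Glul alone, 57 bases before its start, and in 14.0% of all promoters. The aryl hydrocarbon receptor core GCGTG was before 0 of the 7 and 28.2% of all. A match describes letters and not binding, and its absence in this window says nothing of a factor. Lgr5, Tbx3 and Rhbg were not in the table.

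Wif1 is a secreted inhibitor that binds Wnt ligands. Its level was -1.54 and -1.97 in BD_HF livers, -2.34 and -1.67 in LF_HF, -5.13 and -5.5 in VAD_VAD, and -7.29 and -7.47 in LF_LF. The 4 high fat arrays were all well above background, and none of the 4 low fat arrays was. The probe (mm9 chr10:120537079-120537138) is the only one of Wif1 on the array. Levels of VAD_VAD and LF_LF are therefore bounds, and their order is not read.

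Lgr5, a receptor for R-spondins, had levels of -0.40 and -0.35 in BD_HF livers, -0.40 and -1.38 in LF_HF, -2.62 and -1.14 in VAD_VAD, and -1.19 and -1.43 in LF_LF. Both BD_HF arrays lay above both LF_LF arrays, LF_HF and VAD_VAD overlapped LF_LF, and the VAD_VAD pair had the widest gap. Axin2, which feeds back on the pathway by promoting breakdown of beta-catenin, had -4.93 and -4.30 in BD_HF livers, -5.60 and -6.03 in LF_HF, -6.20 and -7.04 in VAD_VAD, and -5.50 and -5.15 in LF_LF. It was well above background only on BD_HF replicate 2 and LF_LF replicate 2, so no difference was tested for it. Tbx3, a transcription factor and Wnt target, had 3.15 and 3.78 in BD_HF livers, 1.95 and 3.39 in LF_HF, 1.91 and 2.24 in VAD_VAD, and 1.68 and 1.74 in LF_LF. Its LF_LF arrays were the lowest, and LF_HF replicate 1 lay near VAD_VAD. Second probes of Lgr5 and Tbx3 were dim, well above background on 1 array each, LF_HF replicate 1 for Lgr5 and LF_HF replicate 2 for Tbx3.

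The next members handle ammonia, glutamate and glutamine. Glul encodes glutamine synthetase, restricted in liver to the cells around the central vein. Its level was 6.52 and 6.63 in BD_HF livers, 5.86 and 7.01 in LF_HF, 6.14 and 5.99 in VAD_VAD, and 4.14 and 4.95 in LF_LF, the lowest group. The 2 LF_HF arrays lay on either side of those of BD_HF and VAD_VAD. Slc1a2, a glutamate transporter, had 3.86 and 3.99 in BD_HF livers, 2.94 and 4.18 in LF_HF, 2.79 and 2.84 in VAD_VAD, and 1.51 and 1.43 in LF_LF. LF_LF was again below every other array, and VAD_VAD lay between LF_LF and the high fat arrays. Oat, ornithine aminotransferase, had 5.27 and 5.85 in BD_HF livers, 4.69 and 5.42 in LF_HF, 4.84 and 3.63 in VAD_VAD, and 3.11 and 4.05 in LF_LF, so its VAD_VAD and LF_LF arrays overlapped. Rhbg, an ammonium transporter, had another order: 1.03 and 1.53 in BD_HF livers, 1.77 and 1.85 in LF_HF, -1.92 and -1.42 in VAD_VAD, and 0.98 and 1.37 in LF_LF. Its VAD_VAD arrays lay below all 6 others, and BD_HF overlapped LF_LF.

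Both cytochrome P450 members were lowest in LF_LF. Cyp2e1, which oxidises ethanol and ketones, had levels of 8.02 and 8.28 in BD_HF livers, 7.29 and 8.12 in LF_HF, 7.79 and 6.99 in VAD_VAD, and 5.27 and 5.85 in LF_LF. LF_HF overlapped BD_HF and VAD_VAD, and all 6 of these arrays lay above LF_LF. Cyp1a2, which oxidises caffeine and aromatic amines, had 3.79 and 3.83 in BD_HF livers, 3.13 and 4.52 in LF_HF, 1.78 and 2.87 in VAD_VAD, and 1.14 and 1.96 in LF_LF. The high fat arrays lay above the low fat arrays, while VAD_VAD overlapped LF_LF.

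**Figure D1:**
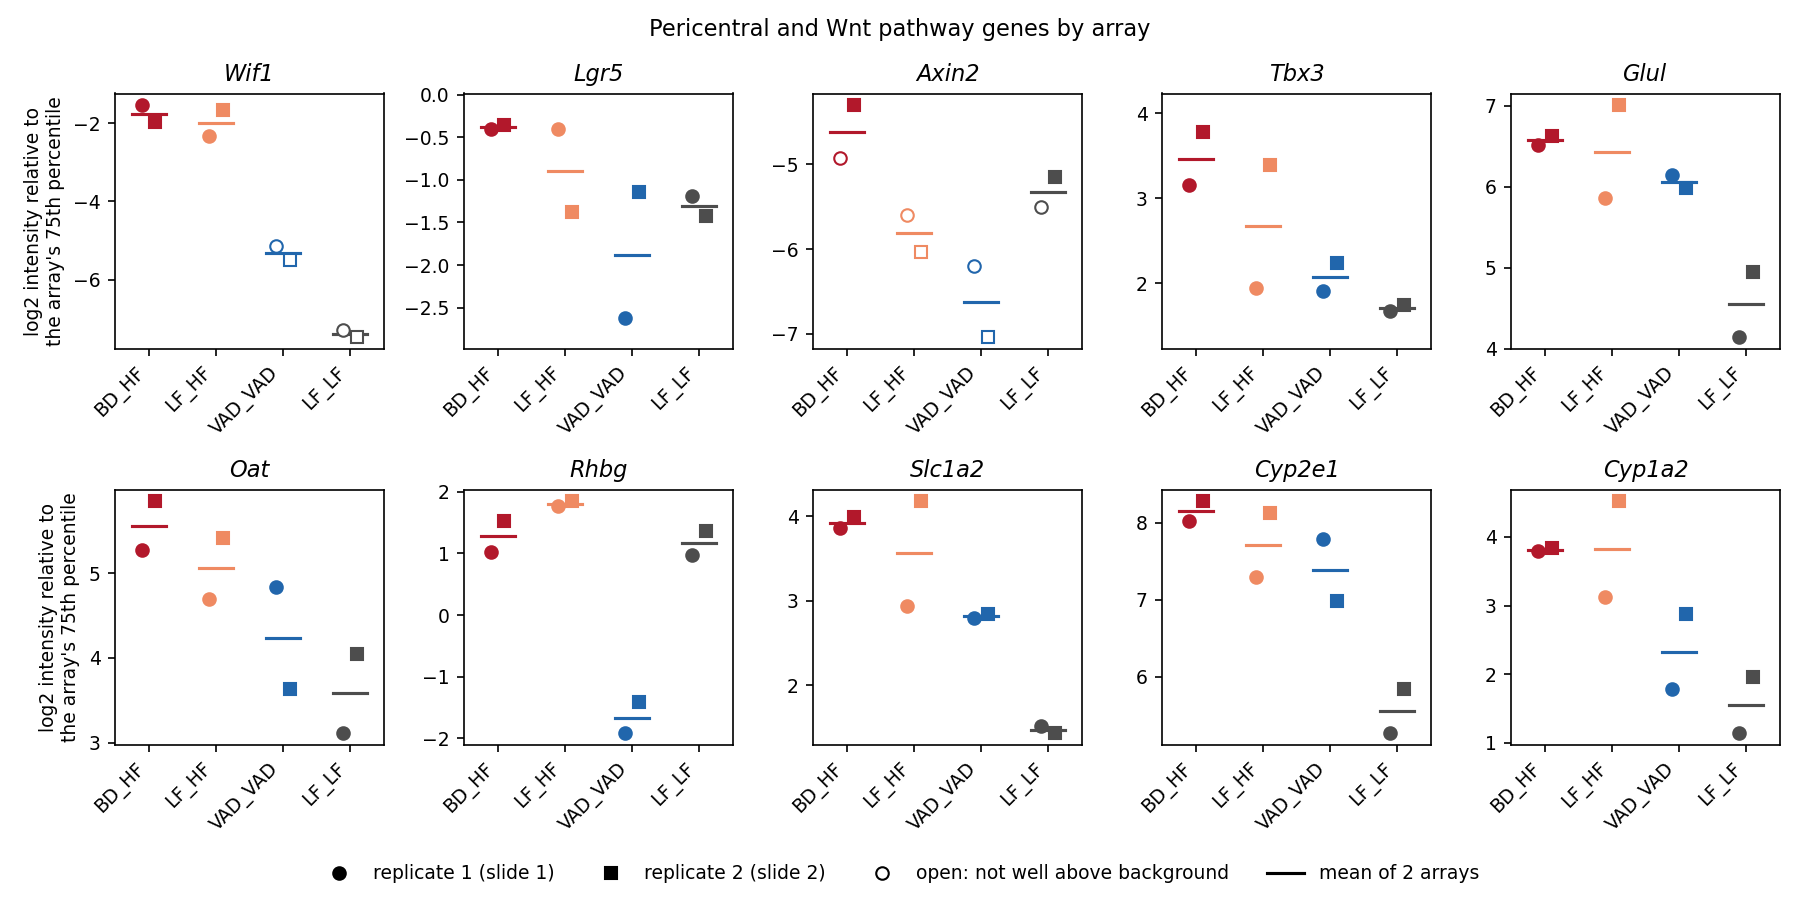
Log2 intensity relative to the array's 75th percentile (y axis, scaled per gene) of the brightest probe of each of the 10 genes, by diet group (x axis); circles are replicate 1 on slide 1, squares replicate 2 on slide 2, open symbols are not well above background and bars are means of 2 arrays. The 4 low fat arrays of Wif1 are open symbols, and the VAD_VAD arrays of Rhbg at -1.92 and -1.42 lie below all others.

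The first comparison asked what a high fat diet after weaning did under a maternal low fat diet of the same name. In LF_HF livers Wif1 was well above background, and in LF_LF it was not. Of the other 8 genes none passed the test, and 7 had higher levels on both LF_HF arrays. Wif1 averaged -2.0 ± 0.477 in LF_HF, against -7.38 ± 0.127 in LF_LF (SD, n = 2 each), a fitted difference of 5.38 (SE 0.366). The filter kept Wif1 through its high fat arrays alone, so its p-value against LF_LF is not read. Since LF_LF was not well above background, the level in LF_HF was at least 11.7-fold higher. With Wif1 left out, 0 of 8 genes were called, where 2.49% of all tested genes were called in either direction, 0.617% as higher and 1.87% as lower, and 5 of 8 had an unadjusted p under 0.05, against 16.6% of all genes.

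Short of the 0.05 threshold in the same limma fit were Slc1a2 at 2.09 (SE 0.429, adjusted p = 0.0564), Cyp2e1 at 2.15 (SE 0.444, adjusted p = 0.0564), Glul at 1.89 (SE 0.464, adjusted p = 0.0943) and Cyp1a2 at 2.28 (SE 0.580, adjusted p = 0.105). With the slide as a block Cyp1a2 passed at an adjusted p of 0.0479, so that 1 of 8 was called. Oat differed by 1.47, Tbx3 by 0.96, Rhbg by 0.64 and Lgr5 by 0.42, with adjusted p from 0.237 to 0.754. Both LF_HF arrays lay above both LF_LF arrays for 7 of the 8 genes, all but Lgr5, against 20.9% of all genes. The median difference of the 8 was 1.68, against -0.02 over all genes, and it was 1.51 within slide 1 and 1.85 within slide 2.

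The fitted Wif1 difference was 3.42 with quantile normalization and 1.19 with normexp background correction. It was 5.47 without LF_LF replicate 1, and each value rests on LF_LF signal not well above background. The difference was 5.72 without LF_HF replicate 1 and 5.04 without LF_HF replicate 2. Without LF_HF replicate 1, Tbx3 was at 1.68, Glul at 2.46, Slc1a2 at 2.70, Cyp2e1 at 2.56 and Cyp1a2 at 2.97. Over all alternatives their lowest differences were 0.24, 1.32, 1.47, 1.74 and 1.58 in that order. In fits without either LF_HF array the lone LF_HF array is assumed to vary like the arrays of the other groups. What those fits called is not read.

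BD_HF against LF_LF asks about high fat without the LF_HF arrays, but both the maternal and the weaning diets differ, and LF_LF is shared with the comparison above, so the values stand side by side. Slc1a2 and Cyp2e1 rose in BD_HF, 2 of the 8 genes well above background on all arrays, where 1.51% of all genes were called in either direction, 0.455% as higher and 1.05% as lower. An unadjusted p under 0.05 was found for 6 of the 8, against 12.8% of all genes. Wif1 averaged -1.76 ± 0.302 in BD_HF, against -7.38 ± 0.127 in LF_LF (SD, n = 2 each), a fitted difference of 5.63 (SE 0.366). It was at least 13.9-fold higher in BD_HF, and its p-value is again not read. Slc1a2 averaged 3.92 ± 0.0944 in BD_HF, against 1.47 ± 0.0551 in LF_LF (SD, n = 2 each), 5.46-fold higher (log2 difference 2.45, SE 0.429, limma adjusted p = 0.0449). Cyp2e1 averaged 8.15 ± 0.184 in BD_HF, against 5.56 ± 0.412 in LF_LF (SD, n = 2 each), 6.03-fold higher (2.59, SE 0.444, limma adjusted p = 0.0414).

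Cyp1a2 at 2.26, Glul at 2.02, Oat at 1.98, Tbx3 at 1.76, Lgr5 at 0.93 and Rhbg at 0.10 did not pass, with limma adjusted p from 0.105 to 0.95. Both BD_HF arrays lay above both LF_LF arrays for 7 of the 8 genes, all but Rhbg, against 34.2% of all genes, and for 0 the other way, against 25.9%, and their median difference was 2.0, against 0.11 over all genes. The Cyp2e1 call ended with the slide as a block (adjusted p = 0.0549), and those of Slc1a2 and Cyp2e1 ended with all probes of a gene averaged, with outlier spots kept, with no filter on dim probes, and without any 1 array of BD_HF, LF_LF or VAD_VAD, with adjusted p from 0.0554 to 0.408. Normexp gave Wif1 a fitted difference of 1.32. Leaving out an LF_HF array changes none of these differences, only the spread that the fit shares, and what those fits called is not read.

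VAD_VAD against LF_LF asks what vitamin A deficiency did on the low fat diet. Rhbg fell: it averaged -1.67 ± 0.356 in VAD_VAD, against 1.17 ± 0.272 in LF_LF (SD, n = 2 each), a difference of -2.84 (SE 0.353, limma adjusted p = 0.0264), 7.18-fold lower. The within-slide differences were -2.90 and -2.79. Of 13 neutrophil and lymphocyte markers 0 passed, with a median of 0.57. S100a8 and S100a9, calprotectin subunits abundant in neutrophils, differed by 2.52 (limma adjusted p = 0.0504) and 2.26 (adjusted p = 0.159), and 3 of the 13 were lower, Ms4a1, a B cell marker, by a difference of -1.63. The hepatocyte markers had a median of 0.71, with 13 of 15 higher on all arrays, against 32.4% of all genes. The part of either list in the differences from LF_LF was not tested. Rhbg was 1 of the 8 genes called, where 0.57% of all genes were called in either direction, 0.478% as lower and 0.0922% as higher. With it, 4 of the 8 had an unadjusted p under 0.05, against 10.3% of all genes. Rhbg in VAD_VAD was also below both high fat groups, whose averages were 1.28 ± 0.352 in BD_HF and 1.81 ± 0.0574 in LF_HF, differences that were not tested one by one.

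Of the other 7, none passed in VAD_VAD against LF_LF. Cyp2e1 differed by 1.83 (SE 0.444, limma adjusted p = 0.181), Glul by 1.52 (SE 0.464, adjusted p = 0.279), Slc1a2 by 1.34 (SE 0.429, adjusted p = 0.31) and Cyp1a2 by 0.78 (SE 0.580, adjusted p = 0.709). Wif1 was not well above background in either group and is not compared. Both VAD_VAD arrays lay above both LF_LF arrays for 4 of the 8 genes, Tbx3, Glul, Slc1a2 and Cyp2e1, against 32.4% of all genes and 13 of the 15 hepatocyte markers, and below them for Rhbg alone, against 25.5%. The median difference of the 8 was 0.72, against 0.09 over all genes and 0.71 for the hepatocyte markers. Oat and Lgr5 had opposite signs on the slides, Oat 1.73 on slide 1 and -0.41 on slide 2, and Lgr5 -1.43 on slide 1 and 0.29 on slide 2.

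The Rhbg call ended with no filter on dim probes (adjusted p = 0.188) and without BD_HF replicate 1 or 2 (0.0937 each), LF_LF replicate 1 (0.231) or 2 (0.337), or VAD_VAD replicate 1 (0.208) or 2 (0.108), while its difference lay between -3.10 and -2.11 in all alternatives and its adjusted p between 0.00194 and 0.337. Leaving out an LF_HF array does not change the Rhbg difference, only the spread that the fit shares, and what those fits called is not read.

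BD_HF against LF_HF asks about the maternal diet in offspring weaned onto high fat. None of the 9 genes passed, and none had an unadjusted p under 0.05, with limma adjusted p from 0.786 to 0.99, where 0.00576% of all genes were called and 5.45% had an unadjusted p under 0.05. The differences ran from -0.53 for Rhbg to 0.80 for Tbx3, with a median of 0.40 over the 8 genes well above background on all arrays, against 0.17 over all genes. The 95% intervals of single genes reached as low as -1.37 (Cyp1a2) and as high as 1.97 (Tbx3). With 2 arrays a group, a difference inside a gene's interval remains compatible with its values. Only Rhbg did not overlap, with BD_HF at 1.03 and 1.53 and LF_HF at 1.77 and 1.85, where 9.56% of all genes lay lower in this way. The median difference of the 8 was 0.65 within slide 1, which holds LF_HF replicate 1, and -0.01 within slide 2. Without LF_HF replicate 2, which leaves only the array that stood apart, the difference was 1.51 for Tbx3 and 0.98 for Slc1a2. Over all alternatives these ran from 0.08 to 1.51 and from -0.25 to 0.98.

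Over all 4 groups at once, the moderated F test of limma called Rhbg (adjusted p = 0.0198), 1 of the 8 genes well above background on all arrays, where 0.864% of all genes were called. Cyp2e1 (0.0987) and Slc1a2 (0.104) came next by adjusted p, and Lgr5 (0.526) last. The Rhbg call did not hold without any 1 array of BD_HF, LF_LF or VAD_VAD. Fits without either LF_HF array leave a lone array in that group, and what they called is not read. For Wif1 the F test rests on values not well above background in 2 of the 4 groups, and it is not read.

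**Figure D2:**
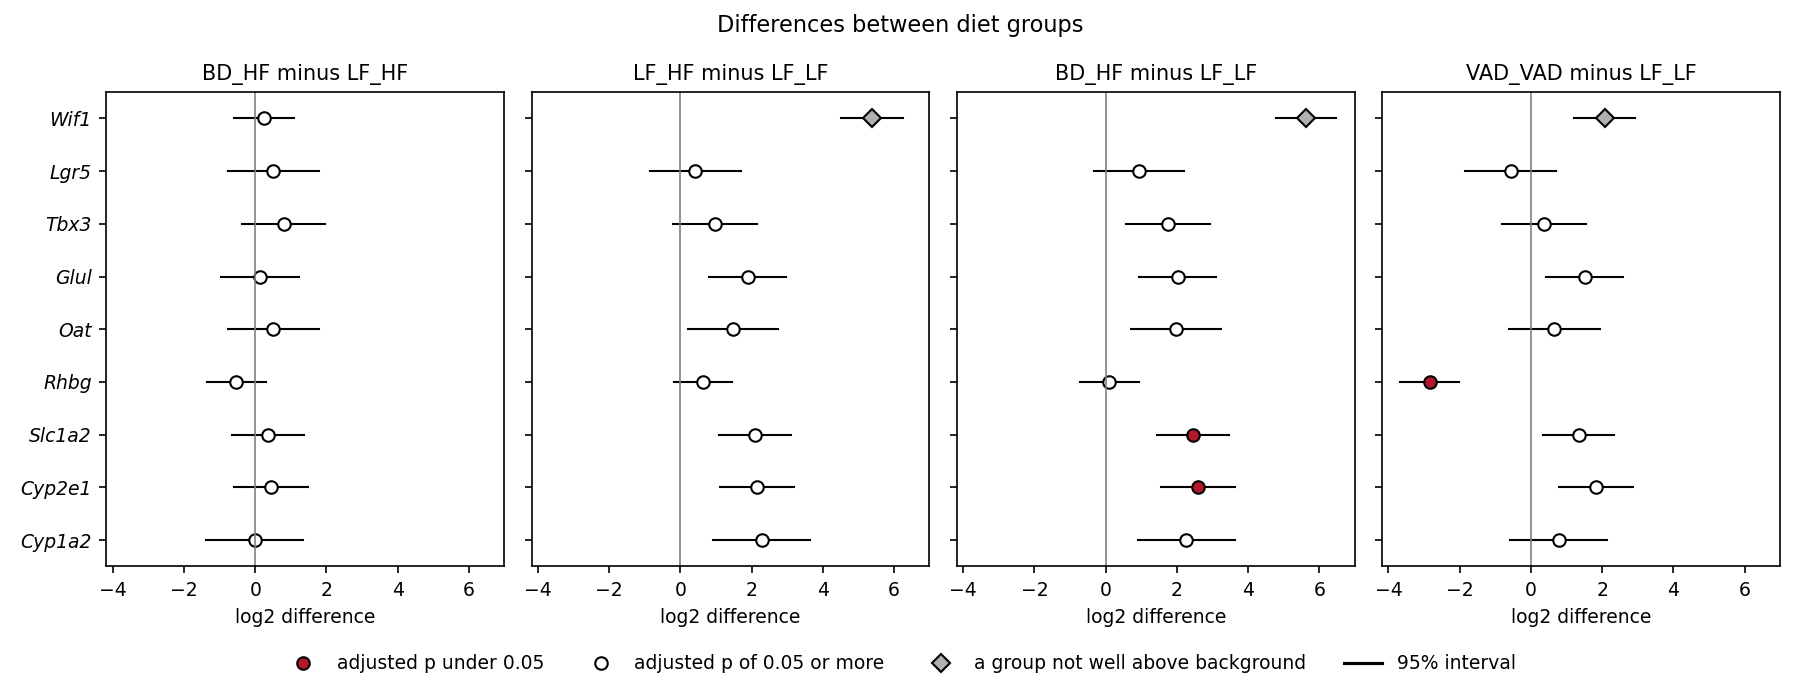
Log2 differences (x axis) of the 9 tested genes (rows) in 4 comparisons (panels), with 95% intervals of the limma fit; red points have an adjusted p under 0.05, and grey diamonds mark Wif1 where a group was not well above background. Rhbg at -2.84 stands farthest from 0 among the circles, and the BD_HF minus LF_HF panel holds no red point.

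Glul, Slc1a2 and Cyp1a2 had 3, 4 and 2 probes that passed the filter, and every one of these probes had a positive difference against LF_LF in BD_HF, LF_HF and VAD_VAD. For Glul the probe differences in LF_HF minus LF_LF were 1.89, 1.37 and 2.5, and the third of these, at mm9 chr1:155751765-155751824, passed in a fit over all probes (limma adjusted p = 0.0364). The same probe passed in BD_HF minus LF_LF (2.65, adjusted p = 0.0357), where the brightest Glul probe gave 2.02 (adjusted p = 0.127). It was -0.50 and 0.22 in LF_LF and at least 1.70 on every other array. For Slc1a2 the 4 probes gave 1.51 to 2.09 in LF_HF minus LF_LF, 1.10 to 1.59 in VAD_VAD minus LF_LF and 1.68 to 2.51 in BD_HF minus LF_LF, and 0 passed in the fit over probes, where the brightest had an adjusted p of 0.0584 in BD_HF minus LF_LF. The second Cyp1a2 probe gave 2.45 in LF_HF minus LF_LF (adjusted p = 0.0677) and 2.37 in BD_HF minus LF_LF (adjusted p = 0.0952).

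**Figure D3:**
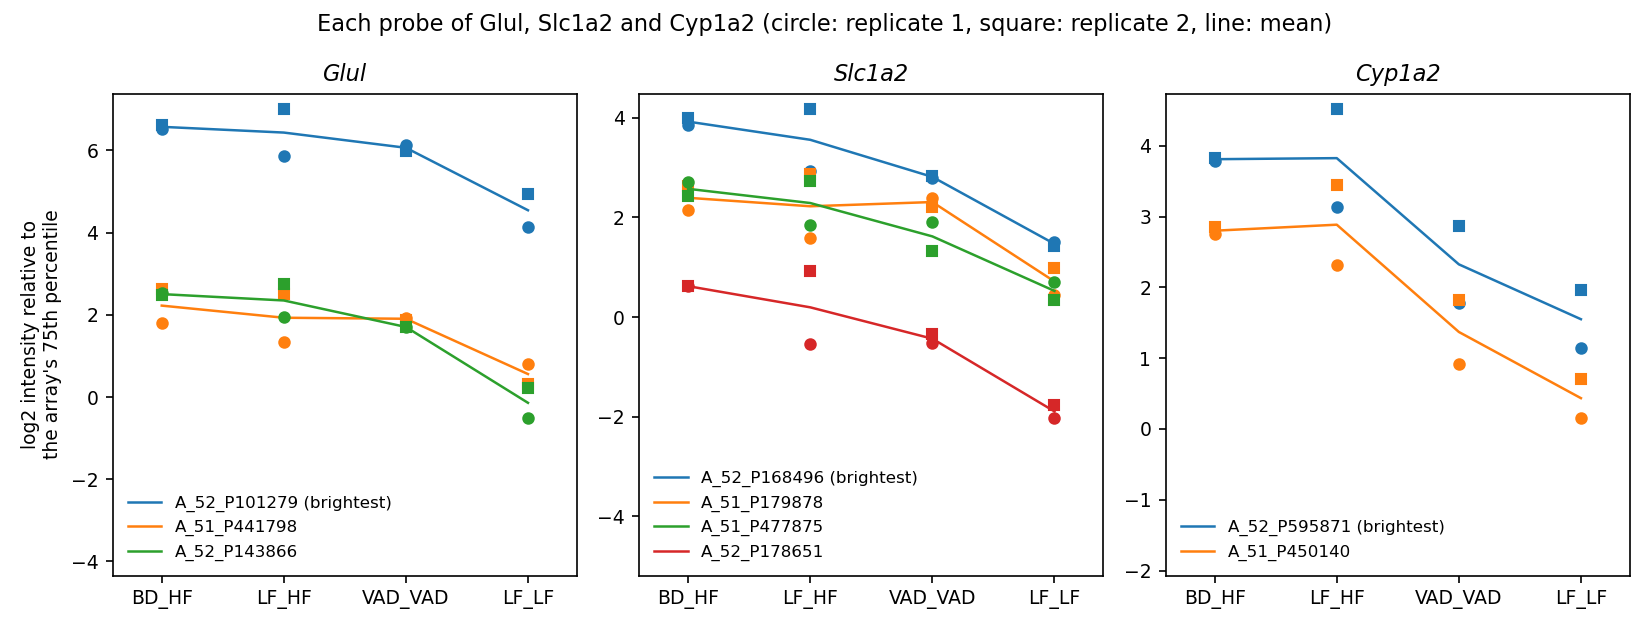
Log2 intensity relative to the array's 75th percentile (y axis) of each probe of Glul, Slc1a2 and Cyp1a2 that passed the filter, by diet group (x axis), with circles for replicate 1, squares for replicate 2 and lines through the means of 2 arrays. Every probe has its lowest mean in LF_LF, and the Glul probe drawn in green is at -0.50 and 0.22 there.

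The rest of the Wnt pathway was described from lists of genes by role. Of 13 ligand and secretion genes tested with limma, 0 changed in any comparison with LF_LF, and 2 in BD_HF, 4 in LF_HF and 5 in VAD_VAD had an unadjusted p under 0.05 (12.8%, 16.6% and 10.3% of all genes), with medians of 0.30 in BD_HF, 0.34 in LF_HF and 0.47 in VAD_VAD minus LF_LF. Wnt7b had the largest value in LF_HF minus LF_LF (2.49, SE 1.08, limma adjusted p = 0.308), and its level was 0.62 on LF_HF replicate 1 and -3.34 on LF_HF replicate 2, against -3.65 and -4.06 in LF_LF. The signals of the central vein itself, named here outside the rule for choosing list genes, were Wnt2 (0.34), Wnt9b (0.13) and Rspo3 (0.17) in LF_HF minus LF_LF, with limma adjusted p from 0.739 to 0.912. In VAD_VAD minus LF_LF they were 0.48, 0.97 and -0.31, with adjusted p from 0.382 to 0.867. In BD_HF minus LF_LF they were 1.01, 0.27 and 0.15, with adjusted p from 0.373 to 0.951. Wnt2 was at 0.64 and 0.99 in BD_HF livers, against 0.02 and -0.40 in LF_LF. Rspo3 and Wnt9b took the opposite sign in LF_HF minus LF_LF under quantile normalization, at -0.88 and -1.31. The log2 of the mean linear level of 17 endothelial markers, the 3 signals included, was 1.8 and 2.16 in BD_HF livers, 1.01 and 0.57 in LF_HF, 1.90 and 2.07 in VAD_VAD, and 1.5 and 1.43 in LF_LF, and its part was not tested. Of these 17, 0 passed in BD_HF minus LF_HF, with 6 at an unadjusted p under 0.05, a median of 0.88 and 11 with both BD_HF arrays above both LF_HF arrays, against 17.5% of all genes.

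Among 17 R-spondin and receptor genes tested, 1 rose in both high fat groups, where 0.455% (BD_HF) and 0.617% (LF_HF) of all genes were called as higher. This was Fzd8, a Wnt receptor. Its level was -0.69 and -0.25 in BD_HF livers, -0.42 and -0.79 in LF_HF, -1.66 and -2.18 in VAD_VAD, and -2.66 and -2.71 in LF_LF. The difference was 2.21 in BD_HF minus LF_LF (SE 0.347, limma adjusted p = 0.0331) and 2.08 in LF_HF minus LF_LF (SE 0.347, adjusted p = 0.0324), and 0.76 in VAD_VAD minus LF_LF (adjusted p = 0.521). Both calls ended without any 1 array of BD_HF, LF_LF or VAD_VAD, with adjusted p from 0.0612 to 0.318, and with no filter on dim probes (0.171 and 0.143), that in LF_HF also with array quality weights (0.263), and normexp gave 1.42 and 1.33. Of 12 antagonists and feedback inhibitors, 0 passed in any comparison. An unadjusted p under 0.05 was found for 3 in BD_HF, 5 in LF_HF and 2 in VAD_VAD minus LF_LF (12.8%, 16.6% and 10.3% of all genes). Dkk3, a secreted protein of the Dickkopf family, came closest at -2.70 in BD_HF (adjusted p = 0.0519), -2.27 in LF_HF (0.0684) and -2.28 in VAD_VAD minus LF_LF (0.137). None of 20 beta-catenin core and TCF genes passed, with at most 1 in a comparison at an unadjusted p under 0.05, and their medians were 0.16 in BD_HF, -0.20 in LF_HF and 0.05 in VAD_VAD minus LF_LF.

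Other Wnt target genes had medians below 0 against LF_LF, but in BD_HF the slides differed in sign, at 0.41 within slide 1 and -0.54 within slide 2. In BD_HF and in LF_HF 4 genes were positive and 5 negative, and in VAD_VAD 1 was positive and 8 negative. Of 9 tested, 0 passed, with 5 in BD_HF, 5 in LF_HF and 4 in VAD_VAD at an unadjusted p under 0.05, where 12.8%, 16.6% and 10.3% of all genes had one, and the medians were -0.44 in BD_HF, -1.23 in LF_HF and -0.98 in VAD_VAD minus LF_LF. Ccnd1, cyclin D1, was at 0.91 and 0.60 in BD_HF livers, -0.02 and 0.15 in LF_HF, -0.72 and 2.42 in VAD_VAD, and 3.67 and 3.72 in LF_LF. Its difference was -2.94 in BD_HF (limma adjusted p = 0.196), -3.63 in LF_HF (adjusted p = 0.0883) and -2.84 in VAD_VAD minus LF_LF (adjusted p = 0.278).

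Of 22 other pericentral hepatocyte genes, 3 rose and 0 fell in BD_HF, 4 rose and 0 fell in LF_HF, and 2 rose and 0 fell in VAD_VAD, each against LF_LF, with medians of 1.02, 0.94 and 0.96. Of all genes, 0.455%, 0.617% and 0.0922% were called as higher in that order, with medians of 0.11, -0.02 and 0.09. The hepatocyte markers had medians of 0.45, 0.13 and 0.71. Cyp2c37, a P450 of the Cyp2c family, was at 5.39 and 5.81 in BD_HF livers, 4.61 and 5.80 in LF_HF, 3.59 and 3.09 in VAD_VAD, and 0.40 and 0.13 in LF_LF. Its differences were 5.33 in BD_HF (limma adjusted p = 0.00609), 4.94 in LF_HF (0.00491) and 3.07 in VAD_VAD (0.044, and 0.0633 with the slide as a block). Cyp2c54, of the same family, whose members can share signal between probes, rose by 6.27 in BD_HF, 5.82 in LF_HF and 4.06 in VAD_VAD. Nr1i3, the nuclear receptor CAR that controls drug metabolism genes, rose by 3.20 in BD_HF (adjusted p = 0.0147) and 2.63 in LF_HF (adjusted p = 0.0209), and Sult5a1, a sulfotransferase, by 2.06 in LF_HF (adjusted p = 0.0324). Leaving out either LF_LF array ended each of these calls, with adjusted p from 0.0555 to 0.406, apart from that of Cyp2c54 in LF_HF, which ended without LF_LF replicate 1 alone. Leaving out either BD_HF array ended those in BD_HF and VAD_VAD and those of Nr1i3 and Sult5a1 in LF_HF (0.0646 to 0.165), and either VAD_VAD array those in VAD_VAD and that of Sult5a1 (0.0675 to 0.287). With no filter on dim probes the calls in BD_HF and VAD_VAD ended (0.0729 to 0.252), as did those of Nr1i3 (0.115) and Sult5a1 (0.142) in LF_HF. Array quality weights also ended those of Nr1i3 (0.205) and Sult5a1 (0.201) in LF_HF, and outlier spots kept ended those of Sult5a1 in LF_HF (0.0644) and Cyp2c37 in VAD_VAD (0.0698). Normexp gave Cyp2c54 4.09 in BD_HF, 3.59 in LF_HF and 2.10 in VAD_VAD.

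Of 21 genes of the periportal zone tested, 1 fell and 0 rose in LF_HF minus LF_LF, where 1.87% of all genes were called as lower. In BD_HF and VAD_VAD minus LF_LF 0 passed, with 3 and 1 at an unadjusted p under 0.05 (12.8% and 10.3% of all genes). The medians were -0.27 in BD_HF, -0.32 in LF_HF and 0.46 in VAD_VAD minus LF_LF. The 1 that fell was Aldh1b1, a mitochondrial aldehyde dehydrogenase, by 2.26 in LF_HF (SE 0.344, limma adjusted p = 0.0255), and it was at -1.88 in BD_HF (0.0507) and -2.06 in VAD_VAD (0.0601). With the slide as a block it passed in BD_HF (0.0499), so that 1 of the 21 fell there. Its call in LF_HF ended without any 1 array of BD_HF, LF_LF or VAD_VAD (0.0611 to 0.268), with no filter on dim probes (0.127) and with array quality weights (0.251). In BD_HF minus LF_HF, 0 genes of the Wnt pathway and zonation lists passed, with at most 1 in a list at an unadjusted p under 0.05. Of 14 macrophage markers 0 passed, with 3 at an unadjusted p under 0.05, against 5.45% of all genes. For 11 of them both BD_HF arrays were higher, against 17.5% of all genes.

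**Figure D4:**
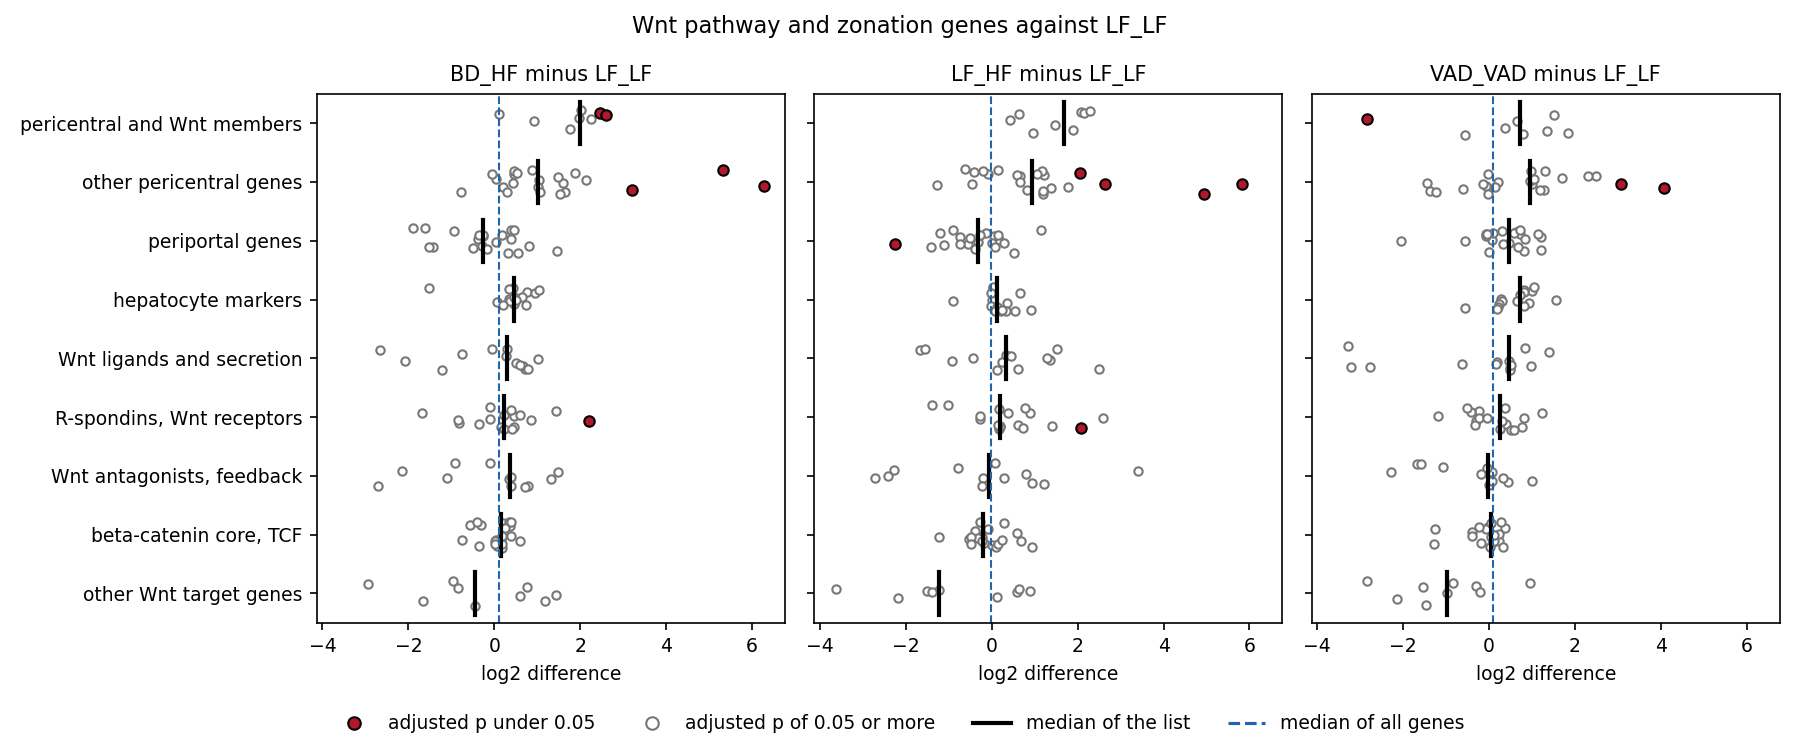
Log2 differences (x axis) of the tested genes of 9 gene lists (rows) in BD_HF, LF_HF and VAD_VAD minus LF_LF (panels); each point is a gene, filled points have a limma adjusted p under 0.05, black bars are list medians and the dashed line is the median of all genes. The members are the 8 well above background on all arrays. They and other pericentral genes have medians of 1.68 and 0.94 in LF_HF minus LF_LF, and periportal genes -0.32.

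For Wif1, Rhbg and Cyp2e1, chosen by the range of their group means with values near background taken as they stand, the genes of most alike profile over the 8 arrays were found as those with the smallest root mean square difference after each gene's mean was subtracted. For Wif1 these were Cyp2c37 (0.617 on the log2 scale), Susd4 (0.628) and Trhde (0.644), a likeness that takes in its 4 low fat values, none of them well above background. For Rhbg they were Nat8 (0.429), Mettl20 (0.440) and Map3k13 (0.5), each lowest on the 2 VAD_VAD arrays. For Cyp2e1 they were Prodh (0.235), Glul (0.279), itself a member, and Fgf1 (0.338). These are descriptions of 8 arrays that share groups and slides, with no test.

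**Figure D5:**
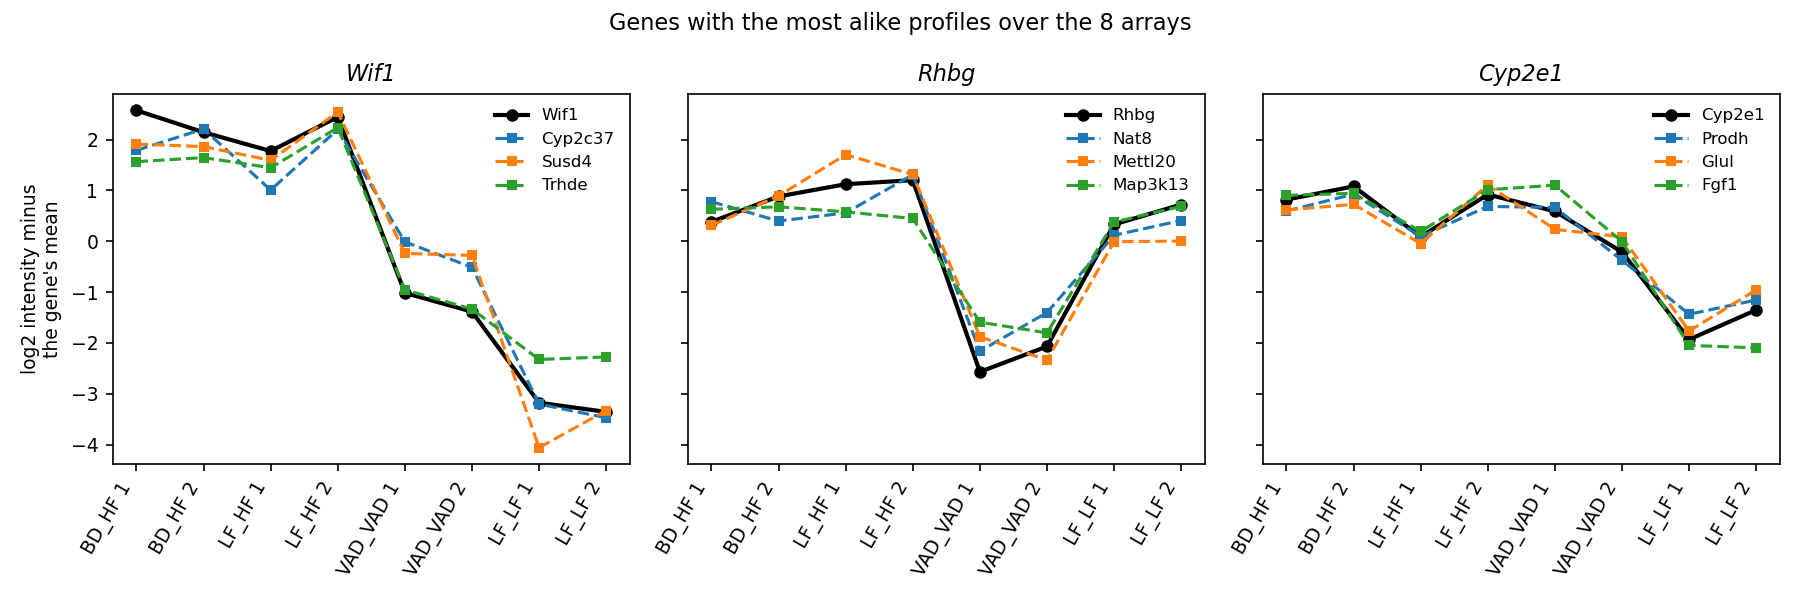
Log2 intensity minus the gene's mean over 8 arrays (y axis) for each array (x axis) of Wif1, Rhbg and Cyp2e1 (black) and of the 3 genes with the smallest root mean square difference from each. The genes beside Rhbg dip on the 2 VAD_VAD arrays, and those beside Wif1 and Cyp2e1 are lowest on the 2 LF_LF arrays.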

How the data were processed

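Total RNA from liver was amplified, labelled with Cy3 and hybridised to one-colour Agilent arrays (design 014868), per the labels' protocols and the file headers. The authors read the images with Feature Extraction 10.7.3.1, and the deposited processed signal is an intensity on a linear scale after background handling and detrending, per the file headers, with mm9 coordinates. The submitters' processing notes also name limma, without a role. The deposited series table held the same intensity to within 0.497%. Members and gene lists were chosen with earlier results of these data known. Leaving Wif1 out of counts and medians of members was also chosen after its values were seen.

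Here, spots marked as outliers were dropped, log2 intensities were set relative to each array's 75th percentile, and spots of a probe were averaged. A probe was kept where 1 or more groups had it well above background on each of its 2 arrays (26224 of 41174), and the probe with the highest mean stood for a gene (17354 genes, 16248 with a value on all arrays). Fits drop missing values: 952 genes had none on LF_HF replicate 1, no member among them. Differences were tested two-sided with limma 3.58.1 in R 4.3.3 over all 8 arrays (4 residual and 3.42 prior degrees of freedom), with Benjamini-Hochberg adjustment over all genes and a threshold of 0.05. Folds against a group not well above background use the lowest signal well above background on its arrays as a bound. A reference symbol was found for 33617 probes (81.6%).

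Groups came from the sample titles. Replicate 1 of every group is on slide 1 and replicate 2 on slide 2, per the file headers, so the slide pairs the samples, and the difference between replicates correlated over genes between each 2 groups at 0.0998 to 0.3. All 10 members are named. Of the other lists, the genes called are named, and of lists with none called at most the 2 with the largest difference among genes well above background on all arrays. Alternatives changed the background correction, normalization, filter, outlier spots, probe rule, array weights, slide block and each array in turn. The number of arrays limits the precision. The scripts were tested on simulated data. Plots were drawn with matplotlib in Python.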

Additional observations from a re-analysis of the deposited data

How the results depend on the processing

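Over the alternatives, the differences of single members, Wif1 included, kept their direction and their side of the threshold in 514 of 608 cases, were no longer called in 34, became called in 47 and reversed in 13. For the list genes named, the numbers were 441 of 561, 72, 42 and 6. Among the member cases, those of Wif1 against LF_LF, 16 in each comparison, rest on p-values that are not read. They are no measure of stability. The counts of members that follow are of the 8 genes well above background on all arrays, without Wif1. The counts of members and of pathway and zonation genes called were 0 and 0 in BD_HF minus LF_HF, 2 and 4 in BD_HF minus LF_LF, 0 and 6 in LF_HF minus LF_LF, and 1 and 2 for VAD_VAD minus LF_LF, and 1 member was called by the F test. Of all 17354 genes, 262, 432 and 99 were called in the 3 comparisons with LF_LF in that order, and 150 in the F test. Over the settings that kept all 8 arrays these counts ran from 0 to 2793, 23 to 2672, 0 to 1165 and 0 to 718. The counts of members and list genes below therefore stand beside wide shifts over all genes. Normexp background gave 6 and 15, 4 and 28, and 2 and 8 in the 3 comparisons with LF_LF in that order, and 5 members in the F test. Quantile normalization gave 4 and 15 in LF_HF minus LF_LF, 5 and 10 list genes in VAD_VAD and BD_HF minus LF_LF, and 3 members in the F test. With no filter on dim probes, 2 list genes were called in LF_HF minus LF_LF, 0 members and 0 list genes in VAD_VAD and BD_HF minus LF_LF, and 0 members in the F test. A filter of at least 6 of 8 arrays, which leaves no value for Wif1, gave 2 members in LF_HF minus LF_LF, 4 list genes in VAD_VAD and 7 in BD_HF minus LF_LF, and 1 member in the F test. Averaging all probes of a gene left 0 members in BD_HF minus LF_LF. Keeping outlier spots also left 0 there, and 1 list gene in VAD_VAD minus LF_LF. Array weights gave 2 list genes in LF_HF minus LF_LF, 3 members and 18 list genes for VAD_VAD minus LF_LF, and 6 and 28 in BD_HF minus LF_LF. With the slide, and so the replicate number, as a block, 1 member was called in LF_HF minus LF_LF and 1 in BD_HF minus LF_LF, with 1 list gene in VAD_VAD minus LF_LF. It ended the calls of Cyp2e1 in BD_HF and Cyp2c37 in VAD_VAD minus LF_LF and added those of Cyp1a2 in LF_HF and Aldh1b1 in BD_HF minus LF_LF. Leaving out 1 array gave 0 to 2 members and 0 to 14 list genes in BD_HF minus LF_HF. It gave 0 to 5 and 0 to 17 in BD_HF minus LF_LF, and 0 to 5 and 0 to 25 in LF_HF minus LF_LF. For VAD_VAD minus LF_LF it gave 0 to 4 and 0 to 14, and in the F test 0 to 6 members. Each of these fits leaves a lone array in a group, so these ranges are no measure of stability. The cause of these shifts was not tested.

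Directions turned for values that lay between -0.57 (Lgr5 in VAD_VAD minus LF_LF) and 0.42 (Lgr5 in LF_HF minus LF_LF) in the main fit. In BD_HF minus LF_HF, Cyp1a2 was 0.04 with normexp and 0.06 with outlier spots kept, and Glul -0.04 with quantile normalization. Rhbg in BD_HF minus LF_LF was -0.01 and Rspo3 in VAD_VAD minus LF_LF 0.25 with normexp, and Rspo3 and Wnt9b in LF_HF minus LF_LF were -0.88 and -1.31 with quantile normalization. Without 1 array, the range in BD_HF minus LF_HF was -0.71 to 0.68 for Cyp1a2, -0.44 to 0.71 for Glul, -0.25 to 0.98 for Slc1a2 and -0.09 to 0.58 for Wif1. For Lgr5 it was -0.07 to 0.91 in LF_HF and -1.32 to 0.17 in VAD_VAD minus LF_LF, and for Rhbg -0.14 to 0.35 in BD_HF minus LF_LF. In LF_HF minus LF_LF it was -0.65 to 0.99 for Rspo3, -0.15 to 0.82 for Wnt2 and -0.13 to 0.38 for Wnt9b. Signal near background limits Wif1 and Axin2, and 2 arrays a group limit every call.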
